A study of Mus musculus with 13 samples.

Results

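Expression of 9 imprinted growth genes was compared between cool (22°C) and warm (29°C) housing in the gluteal fat depot (gluteal WAT) of mice. The genes were *H19*, *Igf2*, *Meg3*, *Dlk1*, *Peg3*, *Plagl1*, *Grb10*, *Cdkn1c* and *Zdbf2*. They were chosen by name, and each matched 1 of the 34419 genes in the deposited counts. RNA came from the subcutaneous gluteal depot of C57BL/6J males, with 7 mice at 22°C and 6 mice at 29°C, a temperature at which mice need little extra heat production. All mice had lived at their temperature from birth and were 13 weeks old. Their posterior hair was taken off weekly with Nair after weaning, and they were kept singly with little bedding and no nest material. The sources used here name no genotype, drug or diet that differed between the groups, and each mouse gave a library of its own from bulk tissue. Levels are counts per gene scaled to library size (CPM), with sizes adjusted by the TMM method. Log2 fold changes (log2FC) are 22°C relative to 29°C and carry their standard error (SE).

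Imprinted genes are transcribed mainly or only from the copy inherited from one parent. In mammals, many paternally expressed imprinted genes promote fetal growth and many maternally expressed ones restrain it, and most fall to low levels in postnatal tissues. *Igf2*, *Dlk1*, *Peg3*, *Plagl1* and *Zdbf2* are expressed from the paternal copy, whereas *H19*, *Meg3*, *Cdkn1c* and, outside the nervous system, *Grb10* are expressed from the maternal copy. In fat, DLK1 is known as preadipocyte factor, an inhibitor of adipocyte differentiation, and GRB10 is an adaptor that dampens signalling from the insulin and IGF1 receptors. The libraries counted both parental copies together, so allelic expression was not measured.

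Several of these loci also carry microRNAs, whose mature sequences are shown because *H19*, *Igf2* and *Meg3* transcripts contain their precursors. Sequences are from RefSeq on the GRCm38.p6 build, 5′ to 3′, with the seed, bases 2 to 8, in capitals. The 6 mature miRNAs have 6 distinct seeds. miR-675 is processed from an exon of *H19*, miR-483 lies in an intron of *Igf2*, and miR-770 lies in an intron of *Meg3*. The RNA-seq libraries did not measure mature miRNAs.
miR-675-5p: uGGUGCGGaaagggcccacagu
miR-675-3p: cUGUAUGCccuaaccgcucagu
miR-483-5p: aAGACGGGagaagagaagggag
miR-483-3p: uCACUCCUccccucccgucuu
miR-770-5p: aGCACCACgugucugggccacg
miR-770-3p: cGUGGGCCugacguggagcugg

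Library totals were between 22356637 and 22857079 counts for 22°C replicates 1 to 5 and between 24821549 and 25245785 counts for the other 8 libraries, so a comparison at like totals rests on 2 mice at 22°C. A total in the lower cluster and the cooler temperature cannot be told apart for those 5 mice. The 6 adipocyte markers held 1.52% to 2.52% of counts in mice at 22°C and 1.93% to 2.80% in those at 29°C, so the defining genes of the labelled tissue were present. Genes of skeletal muscle fibres varied widely between mice: a list of 10 such genes took 0.0701% to 6.76% of counts in mice at 22°C and 0.00826% to 0.610% in mice at 29°C. All 10 had a higher estimate at 22°C (median log2FC 3.03), and 0 of them passed the test, although 5 had an unadjusted p below 0.05. In bulk tissue, fewer cells of a type and less RNA per cell cannot be told apart.

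None of the 8 imprinted growth genes that could be tested was called changed between temperatures. The test was edgeR's quasi-likelihood test with Benjamini-Hochberg adjustment over all genes (P-adj), and genes with P-adj below 0.1 are called. Over the whole table, 345 of 17779 genes were called (1.94%), of which 130 were higher at 22°C (0.731%) and 215 were lower (1.21%). Among the 8 genes, 2 had an unadjusted p below 0.05, *Grb10* and *Dlk1*, beside 18.5% of all genes tested. Both had lower estimates at 22°C. Both were called when the same counts were tested with DESeq2, the tool that the study used for these samples. In that test, 10.2% of the genes it adjusted were called, and 4.65% were called lower at 22°C. The median log2FC of the 8 genes was -0.03, beside 0.01 over all genes tested, with 5 estimates lower and 3 higher at 22°C, where 48.4% of all genes were lower. No gene of the group separated the temperatures without overlap, as 1.24% of all tested genes did. *Zdbf2* had too few counts for the test.

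**Figure D1:**
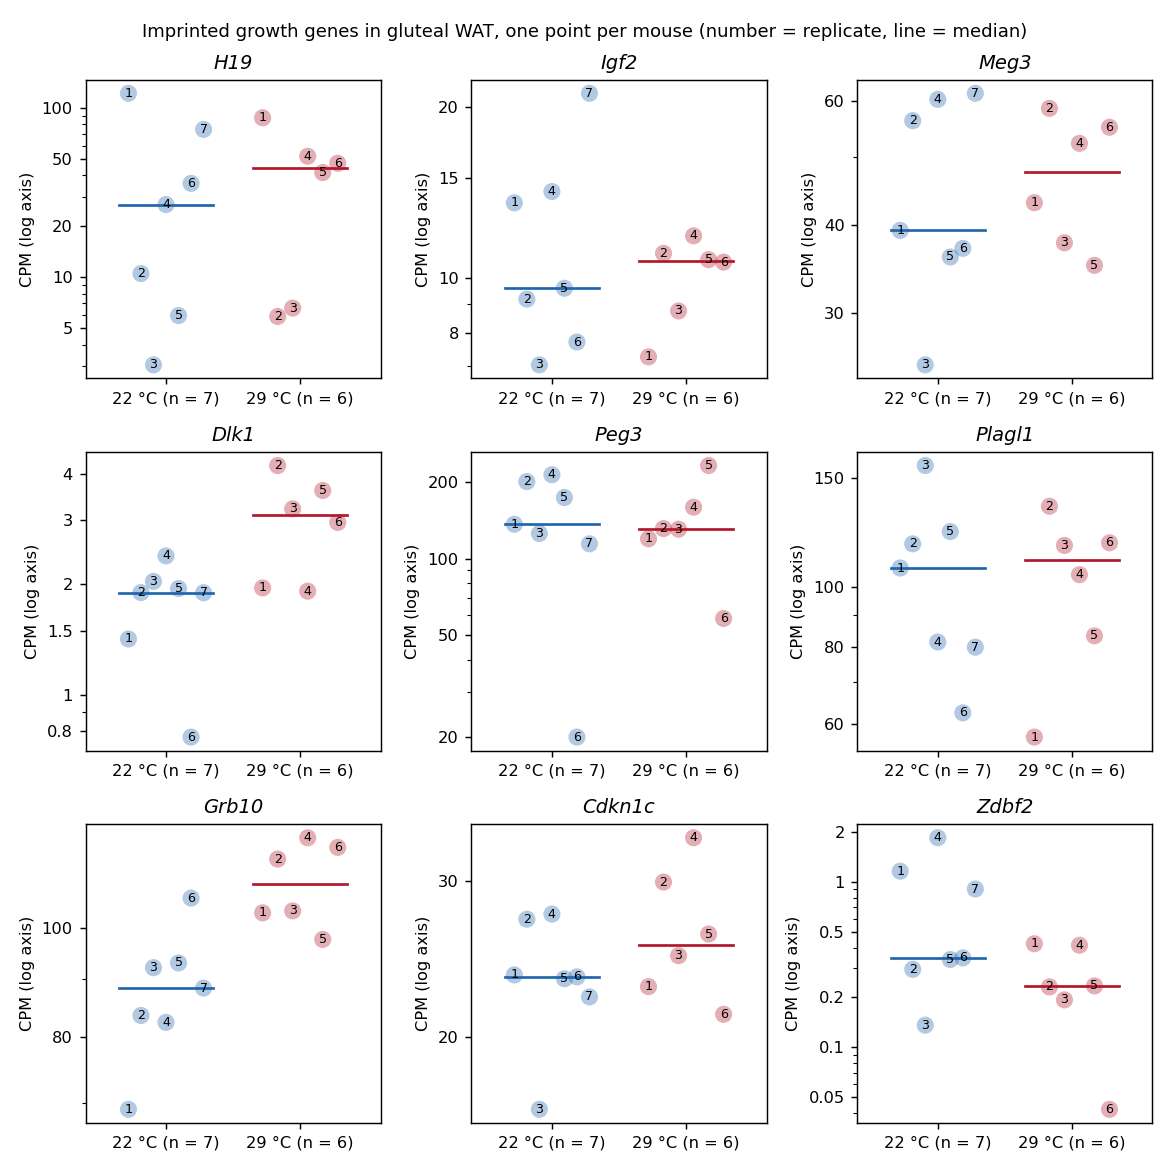
CPM of the 9 imprinted growth genes on log axes, 1 panel per gene, with 7 mice at 22°C (blue) and 6 at 29°C (red); numbers are replicates and lines are medians. *H19* spans from 3.04 to 122 CPM at 22°C, whereas *Grb10* spans 69.0 to 106 CPM there and 97.6 to 120.1 CPM among mice at 29°C.

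The genes differed widely in abundance. Divided by the exon length of each gene in the GENCODE M21 annotation, mean levels over all 13 mice were 16.3 ± 15.0 CPM per kb for *H19*, 13.2 ± 3.72 for *Plagl1*, 12.1 ± 2.07 for *Cdkn1c*, 10.8 ± 1.66 for *Grb10* and 10.5 ± 4.42 for *Peg3* (SD). Each of these 5 means lay within the SD of its neighbour in that order. A second set of levels followed, with 2.54 ± 0.654 CPM per kb for *Meg3* and 1.92 ± 0.660 for *Igf2*, which also lay within their spread of each other. *Dlk1* at 0.411 ± 0.165 and *Zdbf2* at 0.0399 ± 0.0401 CPM per kb were lowest.

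*H19*, a noncoding RNA that shares enhancers and an imprinting control region with *Igf2*, was the most variable of the tested genes. In mice at 22°C, *H19* was 122, 10.5, 3.04, 26.9, 5.93, 35.9 and 74.8 CPM in replicates 1 to 7. Among those at 29°C, it was 87.6, 5.87, 6.57, 51.9, 41.6 and 47.2 CPM in replicates 1 to 6. The highest mouse was therefore 40.3-fold above the lowest at 22°C and 14.9-fold at 29°C, and both temperatures held mice near 6 CPM and mice above 70 CPM. The means were nearly the same, 39.9 ± 43.9 CPM (SD, n = 7) and 40.1 ± 30.8 CPM (n = 6), with a log2FC of -0.01 ± 0.81 (SE, P-adj = 0.996, edgeR). The 95% interval of that difference ran from -1.60 to 1.58, so a change of up to about 3-fold in either direction was not excluded. With the muscle score as a covariate, the log2FC of *H19* was -1.14 (P-adj = 0.671, edgeR). With a block for the replicate number it was -0.61 (P-adj = 0.488, edgeR).

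The *Mir675* gene, which lies inside *H19* on the same strand, followed its host. Its counts were between 7.65% and 12.9% of those of *H19* in each library, and 10.7% in all. *Mir675* was also the gene most like *H19* among 17778 others, with a Pearson r of 0.99 over 13 libraries after centring each temperature on its mean. Because the 2 genes overlap, their counts may share reads, and how reads were divided between them was not tested. The next most alike genes were *Orai1* (r = 0.95), the pore of a calcium channel, and *A730056A06Rik* (r = 0.92).

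*Igf2*, the growth factor of the locus, varied much less. At 22°C its levels were 13.5, 9.17, 7.02, 14.2, 9.58, 7.70 and 21.1 CPM, and at 29°C they were 7.25, 11, 8.74, 11.8, 10.8 and 10.7 CPM. All mice at 29°C fell within the range of those at 22°C, where replicates 1, 4 and 7 lay above every mouse at 29°C. The means of 11.8 ± 4.95 CPM (n = 7) and 10.05 ± 1.71 CPM (n = 6) gave a log2FC of 0.23 ± 0.24 (SE, P-adj = 0.652, edgeR), with an interval from -0.24 to 0.69. Without 22°C replicate 7, the highest mouse, the log2FC was 0.02. Those 3 high mice were also the 3 with most muscle RNA, at 4.67%, 1.20% and 6.76% of counts, and the estimate was -0.06 with the muscle score as a covariate. The count of *Gm49394*, a gene that overlaps *Igf2* on the same strand, was 96.1% of that of *Igf2*, and r between both was 0.999. Reads of these overlapping genes therefore cannot be assigned to one of them alone.

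The *H19* to *Igf2* ratio, which scaling of libraries cannot change, also varied widely between mice. It was 9.02, 1.15, 0.432, 1.90, 0.619, 4.66 and 3.54 at 22°C, and 12.1, 0.531, 0.752, 4.38, 3.87 and 4.43 at 29°C. On the log2 scale, the mean ratio was 0.92 ± 1.59 at 22°C and 1.42 ± 1.72 at 29°C, a difference of -0.50 (two-sided exact permutation test over all splits of the mice, p = 0.591, adjusted over 2 ratios 0.591). Only 2 of 7 mice at 22°C lay above the median of those at 29°C, and none lay above their highest value. In the 8 libraries with higher totals the difference was 0.60, of opposite sign (exact permutation test, p = 0.821). Across mice, *H19* and *Igf2* were related with r = 0.48 (permutation p = 0.135), with r = 0.71 at 22°C and r = -0.15 at 29°C.

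*Nctc1* is a noncoding RNA transcribed near *H19* that is known from skeletal muscle, and it was chosen here after its values were seen. Its levels at 22°C were 42.3, 3.21, 0.544, 10.1, 0.466, 0.501 and 36.5 CPM, highest in the same replicates 1, 4 and 7, and it was between 0 and 3.92 CPM at 29°C. Its log2FC was 3.09 ± 1.28 (SE, P-adj = 0.223, edgeR), and it became -0.09 with the muscle score as a covariate. *H19* and *Nctc1* were related with r = 0.69 and rho = 0.60 (permutation p = 0.0179 and 0.0460, adjusted over 4 relations within domains, chosen after the values were seen, 0.0239 and 0.0614), and r was 0.60 without the 2 mice farthest from the median of *H19*. In 29°C replicate 6 and 22°C replicate 6, *H19* was 47.2 and 35.9 CPM while *Nctc1* had 0 and 13 counts. *Ins2*, next to *Igf2*, had 0 counts in all mice at 29°C and 0.08 counts on average over all 13 mice. *Ascl2* and *Phlda2*, further along the same cluster, averaged 5.38 and 3 counts and were not tested.

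**Figure D2:**
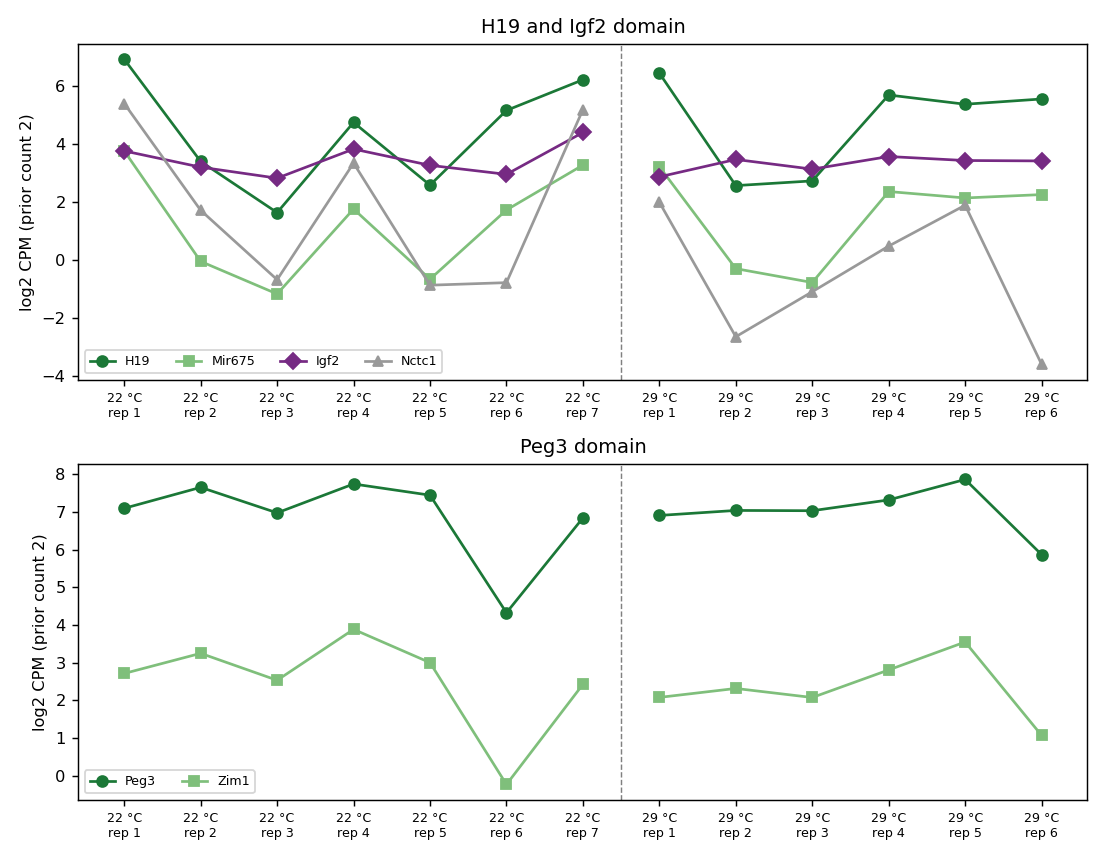
Levels of genes of the *H19* and *Igf2* domain (top) and of the *Peg3* domain (bottom) in each of the 13 mice, as log2 CPM with a prior count of 2; the dashed line divides 22°C from 29°C and lines only join genes across mice, which have no order. *Mir675* runs parallel to *H19* and *Zim1* runs parallel to *Peg3*, with the lowest *Peg3* level, 19.96 CPM, in 22°C replicate 6.

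*Dlk1* showed the largest difference in estimate among the tested genes, at a low level. It was 1.42, 1.90, 2.04, 2.39, 1.95, 0.770 and 1.90 CPM at 22°C, and 1.96, 4.21, 3.21, 1.92, 3.6 and 2.95 CPM at 29°C. Mice at 29°C fell into 2 that matched those at 22°C, replicates 1 and 4, and 4 that lay above all of them. Of the 7 mice at 22°C, 4 lay below every mouse at 29°C. The means were 1.77 ± 0.523 CPM (n = 7) and 2.97 ± 0.907 CPM (n = 6), with a log2FC of -0.75 ± 0.25 (SE, unadjusted p = 0.0103, P-adj = 0.168, edgeR). DESeq2 gave -0.75 with P-adj = 0.0606, which passes the threshold. These levels rest on only 20 to 57 counts per mouse at 22°C and 51 to 109 at 29°C. Leaving out each mouse in turn gave log2FC values from -0.85 to -0.62 with P-adj from 0.137 to 0.301.

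*Meg3*, a noncoding RNA made from the maternal copy of the same domain, had an estimate near 0. *Meg3* levels were 39.3, 56.2, 25.3, 60.3, 36.0, 37.0 and 61.5 CPM at 22°C, and 43.0, 58.5, 37.7, 52.2, 35 and 55 CPM at 29°C. Both temperatures covered almost the same range, with means of 45.1 ± 14.1 CPM (n = 7) and 46.9 ± 9.71 CPM (n = 6), and the log2FC was -0.06 ± 0.20 (SE, P-adj = 0.911, edgeR; 95% interval from -0.46 to 0.34). The *Meg3* to *Dlk1* ratio of counts ran from 12.4 to 48.1 at 22°C (median 27.6) and from 9.73 to 27.2 at 29°C (median 16.3). Of the mice at 22°C, 6 of 7 lay above the median of those at 29°C. The mean log2 ratio was 4.66 ± 0.615 at 22°C and 4.0 ± 0.563 at 29°C, a difference of 0.66 that did not pass the test (exact permutation test over all splits of the mice, p = 0.0717, adjusted over 2 ratios 0.143). It was 1.27 in the libraries with higher totals, of which 2 are from 22°C (exact permutation test, p = 0.0357). That p is the smallest this split can give. With each mouse left out in turn, the difference was largest without 22°C replicate 3 or 29°C replicate 4. It was then 0.83 and 0.81 (exact permutation test, p = 0.0238 and 0.0366). Those mice had the lowest ratio at 22°C and the highest at 29°C. The other 11 runs gave 0.51 to 0.75 (exact permutation test, p from 0.0606 to 0.150).

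Other noncoding genes of the *Dlk1* and *Meg3* domain were not called either. *Rian*, a host of small nucleolar RNAs, was 19.5 ± 9.61 CPM at 22°C and 20.6 ± 4.28 CPM at 29°C, with a log2FC of -0.07 ± 0.27 (SE, P-adj = 0.915, edgeR). *Mirg*, a host of microRNAs, had a log2FC of -0.24 ± 0.32, and *Dio3*, which encodes an enzyme that inactivates thyroid hormone, had -0.29 ± 0.51. *Rtl1* averaged 3.08 counts and was not tested. *Rian* followed *Meg3* across mice with r = 0.79 and rho = 0.73 (permutation p = 0.00232 and 0.00937, adjusted over 4 relations 0.00464 and 0.0187), and r was 0.60 without the 2 mice farthest from the median of *Meg3*. For *Meg3* and *Mirg*, r was 0.54 (adjusted permutation p = 0.0828), whereas r between *Meg3* and *Dlk1* was 0.17. The RefSeq promoter window of *Dlk1*, from 250 bases before to 50 after the start, is given because *Dlk1* had the largest estimate. It lies on the plus strand and holds 9 CpG dinucleotides, in capitals, where the median window of all genes holds 7.
Dlk1, GRCm38.p6, chr12:109452573-109452872: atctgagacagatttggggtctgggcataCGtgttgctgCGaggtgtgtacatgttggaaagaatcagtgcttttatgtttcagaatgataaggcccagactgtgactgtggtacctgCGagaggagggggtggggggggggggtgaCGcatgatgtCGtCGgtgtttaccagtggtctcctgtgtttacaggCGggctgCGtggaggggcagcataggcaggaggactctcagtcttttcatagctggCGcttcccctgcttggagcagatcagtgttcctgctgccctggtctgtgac

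*Peg3*, a zinc finger gene of the paternal copy, was 137, 201, 126, 214, 174, 19.96 and 114 CPM at 22°C, and 119.7, 131, 131, 159, 232 and 58.3 CPM at 29°C. The mouse with the lowest level at each temperature, replicate 6 in both, stood well below the rest of its group. The means of 141 ± 65.2 CPM (n = 7) and 139 ± 56.7 CPM (n = 6) differed by far less than the spread between mice, with a log2FC of 0.02 ± 0.41 (SE, P-adj = 0.988, edgeR; 95% interval from -0.79 to 0.83). Without 22°C replicate 6, the log2FC was 0.21, and in the 8 libraries with higher totals, where replicate 6 is 1 of 2 mice at 22°C, it was -1.04 (P-adj = 0.559, edgeR).

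*Zim1*, the maternally expressed neighbour of *Peg3*, was the gene most like it among 17778, with r = 0.98 and rho = 0.98 over 13 mice after centring (permutation p = 1e-05 for both, the smallest that 100000 resamples can give, adjusted over 4 relations 4e-05). This pair was chosen after the values were seen, and its adjusted p does not cover the 17778 genes compared. The relation held at 22°C alone (r = 0.99), at 29°C alone (r = 0.98) and without both low mice (r = 0.96). *Zim1* was 6.48, 9.42, 5.71, 14.7, 7.93, 0.770 and 5.29 CPM at 22°C and 4.15, 4.90, 4.14, 6.92, 11.6 and 2.02 CPM at 29°C. The mouse at 22°C with the lowest *Peg3* thus also had the lowest *Zim1*, and the same was true at 29°C. Next came *Vnn1* (r = 0.94), which encodes a pantetheinase, and *Dmxl2* (r = 0.91). 22°C replicate 6 also had the lowest level of all 13 mice for *Dlk1*, at 0.770 CPM, for *Mest*, another paternally expressed gene, at 8.01 CPM, and for *Nnat* at 578 CPM, whereas its *Grb10* level was the highest at 22°C. That *Mest* level compares with values from 31.1 to 208 CPM in the other mice at 22°C.

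*Peg3* and *Usp29* start from a shared divergent promoter. *Usp29* averaged 7.08 counts and was not tested. The window of *Peg3*, on the minus strand, is shown because it holds the 8-base motif GGGGCCCC, in capitals, which the product of *Plagl1* is known to bind. The motif reads the same on both strands, and 354 of 32851 RefSeq promoter windows held it (1.08%). Of the 13 windows of 7 members in that table, the *Peg3* window was the one that held it, and the overlapping window of *Usp29* held the same copy. *Peg3* and *Plagl1* levels were related with r = 0.32 across mice.
Peg3, GRCm38.p6, chr7:6730370-6730669: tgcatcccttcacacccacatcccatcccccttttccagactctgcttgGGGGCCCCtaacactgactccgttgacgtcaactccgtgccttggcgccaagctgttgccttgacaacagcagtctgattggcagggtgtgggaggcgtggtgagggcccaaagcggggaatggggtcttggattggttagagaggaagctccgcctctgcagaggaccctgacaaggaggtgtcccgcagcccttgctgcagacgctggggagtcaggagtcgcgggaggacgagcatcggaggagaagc

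*Plagl1* encodes a zinc finger transcription factor that acts on other imprinted genes. Its levels were 107, 117, 157, 81.4, 123, 62.5 and 79.9 CPM at 22°C and 57.1, 135, 117, 105, 83.3 and 118 CPM at 29°C. Each temperature held mice near 60 CPM and mice above 130 CPM. Means of 104 ± 32.2 CPM (n = 7) and 102 ± 28.1 CPM (n = 6) gave a log2FC of 0.02 ± 0.22 (SE, P-adj = 0.971, edgeR; 95% interval from -0.42 to 0.46). In the libraries with higher totals it was -0.53 (P-adj = 0.506, edgeR). The genes most like *Plagl1* were *Thra*, a thyroid hormone receptor (r = 0.93), *Pck1*, an enzyme of glyceroneogenesis (r = 0.91), and *Zbtb5* (r = 0.90).

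*Grb10* had the smallest p of the group and varied least relative to its mean. It was 69.0, 83.6, 92.2, 82.4, 93.0, 106 and 88.4 CPM at 22°C and 103, 115, 103, 120.1, 97.6 and 118 CPM at 29°C. All mice at 22°C but replicate 6 lay below every mouse at 29°C. Means were 87.8 ± 11.4 CPM (n = 7) and 109.5 ± 9.27 CPM (n = 6), 1.25-fold apart, and the log2FC of -0.32 ± 0.09 (SE, unadjusted p = 0.00322) had P-adj = 0.118 in edgeR. It passed the threshold with DESeq2 (P-adj = 0.0247), and without 22°C replicate 6 in edgeR (-0.37, P-adj = 0.0627), where 3.7% of all genes were called and 2.03% were called lower. The libraries with higher totals gave -0.18 (P-adj = 0.544, edgeR), and the totals cluster as a covariate gave -0.17 (P-adj = 0.600). With the muscle score as a covariate, the estimate was -0.22 (P-adj = 0.336).

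Of the 300 bases around the first *Grb10* start in RefSeq, on the minus strand, 80.0% are G or C and 45 are the first base of a CpG, in capitals. As many CpG are found in 1.93% of all windows. The window is given because *Grb10* had the smallest p of the group. A second RefSeq start of *Grb10* has 9 CpG.
Grb10, GRCm38.p6, chr11:12037371-12037670: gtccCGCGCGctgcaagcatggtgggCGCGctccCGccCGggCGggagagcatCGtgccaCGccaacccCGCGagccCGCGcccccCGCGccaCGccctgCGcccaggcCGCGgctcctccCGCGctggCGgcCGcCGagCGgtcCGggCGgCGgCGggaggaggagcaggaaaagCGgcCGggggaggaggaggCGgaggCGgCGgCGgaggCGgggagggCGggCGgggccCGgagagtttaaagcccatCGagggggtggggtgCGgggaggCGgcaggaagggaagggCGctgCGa

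*Cdkn1c*, an inhibitor of cyclin-dependent kinases that restrains growth, was 23.5, 27.2, 16.6, 27.5, 23.3, 23.4 and 22.2 CPM at 22°C and 22.8, 29.9, 24.7, 33.6, 26.1 and 21.2 CPM at 29°C. The groups overlapped throughout, apart from 22°C replicate 3 at the bottom and 29°C replicates 2 and 4 at the top. Means were 23.4 ± 3.63 CPM (n = 7) and 26.4 ± 4.61 CPM (n = 6), with a log2FC of -0.17 ± 0.13 (SE, P-adj = 0.494, edgeR; 95% interval from -0.42 to 0.07). The count of *Gm44732*, which lies antisense to *Cdkn1c*, was 37.5% of that of *Cdkn1c*, and it was the gene most like it (r = 0.92). Whether reads were counted by strand is not given in the sources used here, so reads of both genes cannot be told apart. *Kcnq1ot1*, the noncoding RNA that silences *Cdkn1c* on the paternal copy, was 23.1 ± 4.35 CPM at 22°C and 27.0 ± 4.90 CPM at 29°C, a log2FC of -0.23 ± 0.14 (SE, P-adj = 0.402, edgeR).

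**Figure D3:**
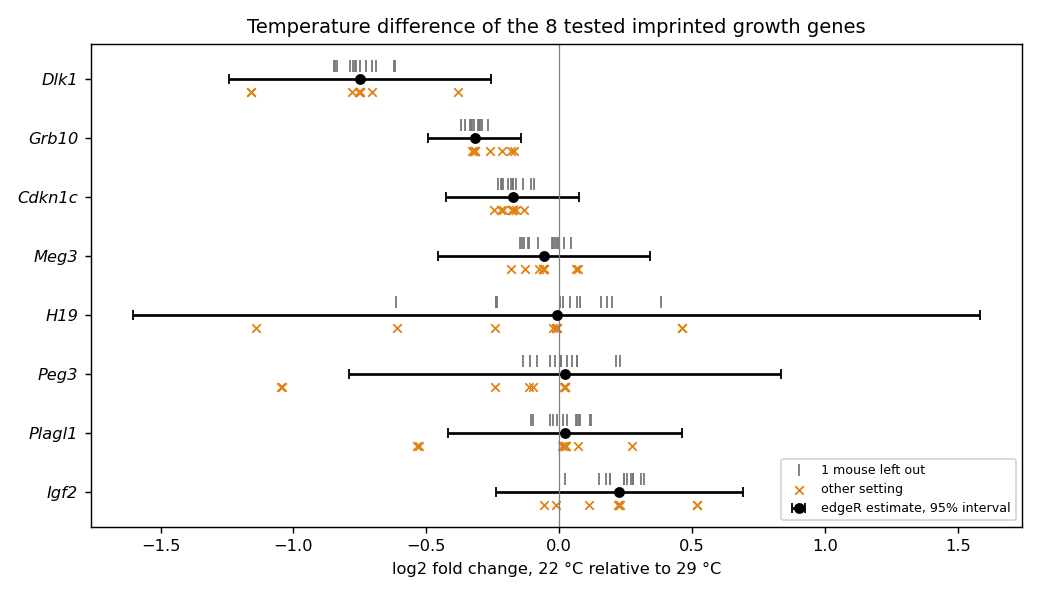
Log2FC values of the 8 tested genes, 22°C relative to 29°C, from edgeR with 95% intervals (black), beside the estimates with 1 mouse left out (grey ticks) and under other settings of the fit (orange crosses). *Dlk1* at -0.75 and *Grb10* at -0.32 are the genes whose bars stay below 0, and *H19* has the widest bar, from -1.60 to 1.58.

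*Zdbf2*, a paternally expressed gene known from control of early growth through the hypothalamus, had between 1 and 44 counts per library. Its counts at 22°C were 22, 7, 3, 44, 8, 9 and 20, and at 29°C they were 11, 6, 5, 11, 6 and 1. In CPM, replicates 1, 4 and 7 at 22°C, at 1.16, 1.85 and 0.904, lay above all mice at 29°C, whose highest level was 0.422. The mean was 0.718 ± 0.619 CPM (n = 7) at 22°C and 0.256 ± 0.144 CPM (n = 6) at 29°C, a difference of 0.462 CPM (two-sided exact permutation test over all splits of the mice, p = 0.108). With each mouse left out the difference was between 0.274 and 0.559 CPM, and it passed 0.05 without 22°C replicate 3 (exact permutation test, p = 0.0455). Tested with no filter on low counts, *Zdbf2* had a log2FC of 1.45 ± 0.58 (SE, unadjusted p = 0.0253, P-adj = 0.341, edgeR). DESeq2 gave 1.48 ± 0.60 (SE, unadjusted p = 0.0144) and no adjusted p for this gene.

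The muscle score is the mean log2 CPM of the 10 muscle fibre genes, and its relation to each of the 9 genes was examined after the data were seen, centred by temperature. Only *Zdbf2* passed after adjustment over the 9 relations (r = 0.77, permutation p = 0.00366, adjusted 0.0329; rho = 0.79, permutation p = 0.00418, adjusted 0.0376), with r = 0.76 at 22°C, r = 0.86 at 29°C and r = 0.70 without the 2 mice farthest from the median score. The call of *Zdbf2* was lost without 22°C replicate 1, 2, 3 or 6 or without 29°C replicate 1 or 6, with adjusted permutation p up to 0.0933. It also rests on few counts, between 1 and 44 per library, too few for the temperature test. How many of all genes would pass against the score was not tested. *Grb10* ran the other way (r = -0.66, permutation p = 0.0132, adjusted 0.0594; rho = -0.65, adjusted 0.0606), with -0.72 at 22°C and -0.63 at 29°C. For *H19*, r was 0.58 (permutation p = 0.0502, adjusted 0.151) and rho was 0.65 (adjusted 0.0606), with r = 0.81 at 22°C and 0.31 at 29°C. 29°C replicate 6 had the least muscle RNA and still 47.2 CPM of *H19*, and without it and 22°C replicate 7 the r of *H19* was 0.78. The part of muscle in the temperature estimates was not tested beyond the covariate.

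**Figure D4:**
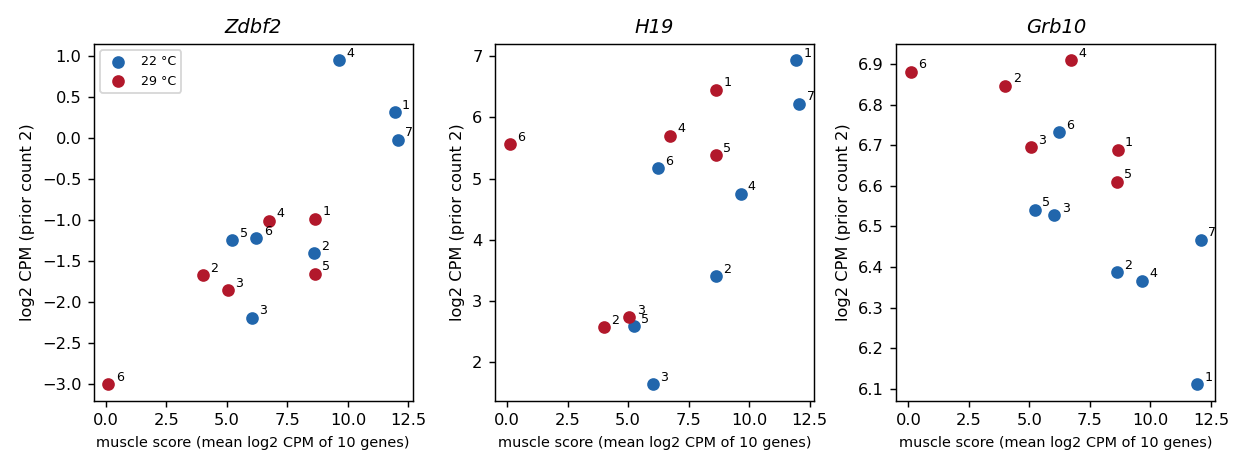
Log2 CPM of *Zdbf2*, *H19* and *Grb10* (y axes, prior count of 2) against the muscle score of the same mouse (x axes), with 22°C in blue, 29°C in red and replicate numbers beside the points. *Zdbf2* is higher in mice with a higher score (r = 0.77 after centring by temperature) and *Grb10* is lower (r = -0.66).

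Relations between the imprinted growth genes across mice were mixed in sign. Of the 28 pairs of tested genes, 16 had a positive r and 12 a negative one after centring by temperature, with a median of 0.06. After adjustment over the 28 pairs, 0 passed 0.05 in a permutation test within temperatures, and 4 had an unadjusted p below 0.05. *H19* and *Plagl1* were opposed (r = -0.69, rho = -0.69, permutation p = 0.0147 and 0.0162, adjusted 0.331 and 0.363), with r = -0.67 at 22°C and -0.72 at 29°C, and r was -0.52 without the 2 farthest mice. *Igf2* and *Meg3* moved the same way (r = 0.67, rho = 0.58, permutation p = 0.0325 and 0.0781, adjusted 0.331 and 0.437), but r fell to 0.40 without 22°C replicates 3 and 7. *Meg3* and *Cdkn1c* had r = 0.58 and rho = 0.46 (permutation p = 0.0427 and 0.122, adjusted 0.331 and 0.441), and r = 0.46 without the same mice. *Dlk1* and *Peg3* had r = 0.67 and rho = 0.58 (permutation p = 0.0474 and 0.0439, adjusted 0.331 and 0.410), with r = 0.92 at 22°C, 0.09 at 29°C and 0.35 without 22°C replicate 6 and 29°C replicate 4.

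**Figure D5:**
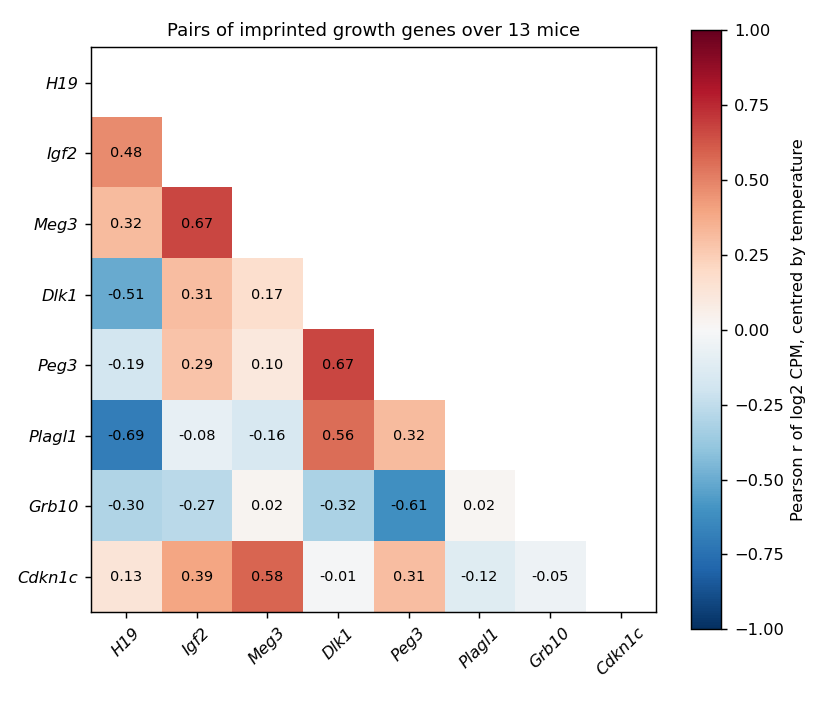
Pearson r of log2 CPM over 13 mice, centred by temperature, for each of the 28 pairs of tested imprinted growth genes; red is positive and blue negative. The strongest positive squares are *Igf2* with *Meg3* and *Dlk1* with *Peg3* (0.67 each), and the strongest negative one is *H19* with *Plagl1* (-0.69).

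The genes most like the remaining members over the 13 mice were mostly not imprinted growth genes. Each was picked as among the highest r of 17778 genes, which describes these mice and was not tested. *Meg3* was closest to *Ulbp1* (r = 0.84), *Gm42528* and *Gm13703* (r = 0.83 each). *Dlk1* was closest to *Pigr* (r = 0.93), a transporter of immunoglobulins in epithelium, followed by *Tfdp2* (r = 0.88) and *Mir6244* (r = 0.86). Markers of epithelium made up between 8e-06% and 0.0240% of counts at 29°C, and their part in the *Dlk1* levels was not tested. *Grb10* was closest to *Ttyh3* (r = 0.92), *Cntrob* (r = 0.90) and *Gm16133* (r = 0.89). After *Gm49394*, *Igf2* was closest to *Gm17552* (r = 0.92) and *Serac1* (r = 0.91), and *Cdkn1c* to *Ankrd35* and *Gm4524* (r = 0.89 each).

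IGF2 and GRB10 act in the IGF system. A list of 21 genes around this system held *Igf1*, receptors and IGF-binding proteins. It also held *Igfals*, *Irs1*, *Irs2*, *Pappa*, *Pappa2*, *Stc1*, *Stc2* and the *Igf2bp* genes, which are none of these. Of the 21, 18 were tested, and 9 had higher and 9 lower estimates at 22°C. The test called 0 of them, beside 1.94% of all genes, and 1 had an unadjusted p below 0.05, beside 18.5% of all genes. The 3 most abundant were *Igfbp4*, *Igfbp5* and *Igfbp7*, which encode binding proteins of IGFs. *Igfbp7* was the gene with the unadjusted p below 0.05, at 425 ± 46.7 CPM and 528 ± 44.4 CPM (log2FC -0.31 ± 0.09, SE, P-adj = 0.118, edgeR), and 5 of 7 mice at 22°C lay below all at 29°C. *Igfbp4* had -0.11 ± 0.10 and *Igfbp5* had -0.29 ± 0.18. *Igf2r*, a maternally expressed receptor that clears IGF2, was outside the naming rule and was chosen after its values were seen, at 90.9 ± 13.2 CPM and 80.2 ± 12.8 CPM (log2FC 0.18 ± 0.12, SE, P-adj = 0.438, edgeR).

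Among 65 other imprinted genes listed, 62 were in the table and 52 were tested. Of these, 21 had higher and 31 lower estimates at 22°C (59.6% lower, beside 48.4% of all genes), with a median log2FC of -0.07. The test called 2 of the 52, beside 1.94% of all genes, and 11 had an unadjusted p below 0.05 (21.2%, beside 18.5% of all genes). *Herc3*, which encodes a ubiquitin ligase, rose at 22°C, from 13.1 ± 1.31 CPM (n = 6) at 29°C to 25.3 ± 10.2 CPM (n = 7), with a log2FC of 0.94 ± 0.21 (SE, P-adj = 0.0726, edgeR). Its levels were between 15.9 and 45.5 CPM at 22°C and between 11.1 and 14.8 CPM at 29°C. *Sgce*, epsilon-sarcoglycan, fell at 22°C, from 84.0 ± 3.20 CPM (n = 6) to 66.9 ± 9.10 CPM (n = 7), with a log2FC of -0.33 ± 0.08 (SE, P-adj = 0.0945, edgeR). *Sgce* lay between 52.0 and 77.5 CPM at 22°C and between 79.9 and 86.9 CPM in the mice at 29°C. Both genes thus separated the groups, as 1.24% of all tested genes did. Neither call held with the muscle score as a covariate (P-adj = 0.233 and 0.262, edgeR) or with the cluster of totals as a covariate (P-adj = 0.300 and 0.364), and leaving out 1 mouse at a time gave P-adj from 0.0541 to 0.170 for *Herc3* and from 0.0627 to 0.209 for *Sgce*.

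The most abundant imprinted genes of that list were *Nnat*, *Gnas* and *Cd81*. *Nnat*, which encodes a small membrane protein of the endoplasmic reticulum, was 1419 ± 765 CPM at 22°C and 2371 ± 1064 CPM at 29°C (log2FC -0.74 ± 0.40, SE, P-adj = 0.347, edgeR). *Gnas*, the stimulatory G protein subunit that couples receptors to cAMP, was 1006 ± 164 CPM and 959 ± 47.9 CPM (0.07 ± 0.10, P-adj = 0.763), and *Cd81* had -0.11 ± 0.08 (P-adj = 0.473). *Adam23*, next to *Zdbf2*, was 20.2 ± 4.76 CPM and 26 ± 2.99 CPM (-0.37 ± 0.14, unadjusted p = 0.0213, P-adj = 0.202, edgeR). *Ddc*, the neighbour of *Grb10*, averaged 5.92 counts and was not tested. The brown fat list of 4 genes, for comparison, had 3 tested genes, *Cidea*, *Cox8b* and *Otop1*. All 3 were called higher at 22°C, beside 0.731% of all genes. These 3 calls were not examined with the muscle score or the cluster of totals as a covariate. Over all genes, 47 and 4 were called with those covariates. The part of muscle RNA in the 3 calls was not tested. *Ucp1*, the other gene of that list, had 0 to 7 counts at 22°C and 0 counts at 29°C and was not tested.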

How the data were processed

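RNA-seq of gluteal WAT was grouped by the temperature and replicate number in the labels. The authors aligned reads with STAR 2.7.5a, counted them with featureCounts and deposited raw counts per gene; the submitters' processing notes name GRCm39, and the annotation release and strand setting are not given in the sources used here. The authors also deposited regularized log2 values from DESeq2, used only in an alternative. Identifiers without version gave a symbol for 34006 of 34419 genes.

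Counts were compared with edgeR 4.0.16 in R 4.3.3 (TMM, filterByExpr, quasi-likelihood F test, no covariate, Benjamini-Hochberg adjustment over 17779 genes). SEs were taken from each estimate and its F (estimate over root F), 95% intervals are normal, and the prior count for log2 CPM was 2. In the ratios, 0.5 was added to each count before the log2. Permutations used numpy 2.4.6, with 100000 resamples within temperatures for correlations. Exon lengths are from GENCODE M21; promoter and miRNA sequences are RefSeq's on GRCm38.p6, where no coordinate of the counts was used. Every library had a distinct profile, so 13 mice were counted, and p-values measure the spread between these mice, taken as independent. A count of 0 allows up to 3 counts. Limits of that kind cover counting error only.

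Members and lists were chosen with earlier results of these data known. Named genes are the members, genes of their domains, called and most abundant genes of the other lists, and the 3 genes most like each tested member. Further genes, among them *Irs1* and *Ucp1*, are named to say what a list held. *Nctc1*, *Igf2r*, *Mest* and *Mir675* as a gene within *H19* were chosen after their values were seen, as were the relations within domains. *Magel2*, *Apeg3*, *Hymai* and *Igfbp1* were not matched. Alternatives were DESeq2 1.42.0, DESeq2 size factors, other filters, a robust fit, a replicate block, covariates, the libraries with higher totals, limma 3.58.1 on the log2 values, and leaving out each mouse. The methods were tested on simulated counts.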

Additional observations from a re-analysis of the deposited data

How the results depend on the processing

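None of the 8 tested genes was called in edgeR or limma under 10 alternatives other than leaving out mice, whereas DESeq2 called 2, and leaving out 1 mouse at a time called 0 to 1 (*Grb10*, without 22°C replicate 6). *Dlk1*, *Grb10* and *Cdkn1c* kept a lower estimate at 22°C under every alternative run. The number of called genes over the whole table, 345, was 1676 with DESeq2, 214 with the replicate block, 47 with the muscle score as a covariate, 42 with no filter on low counts, 40 at P-adj below 0.05, 8 in the libraries with higher totals, 4 with the cluster of totals as a covariate, and 32 to 652 with 1 mouse left out; the cause was not tested. Of 345 genes called by edgeR, DESeq2 called 332.

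Whether same-numbered mice at both temperatures share more than a number is not given in the sources used here. The correlation of their deviations was between 0.05 and 0.51 over 6 pairs, and 5 were above 0.1. Of the 6 numbers, 4 were most like themselves. The main test did not use the numbers, and the cause of this likeness was not tested. The permutation tests of correlations did not use them either and took the mice within a temperature as independent. No replicate block was tried for the correlations. With the replicate block, 0 imprinted growth genes and 1 other imprinted gene (*Nnat*, lower) were called. Over all 17779 genes, 214 were called in that fit, 135 of them lower. *Herc3* and *Sgce* were not called in it. The log2 fold change was -0.012 for *Igf2*, -0.11 for *Peg3* and -0.61 for *H19*.

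Several estimates that did not pass the test changed sign. With the muscle score as a covariate they were -0.057 for *Igf2*, -0.24 for *Peg3*, -0.0027 for *Gnas*, -0.0078 for *Zim1*, -0.094 for *Nctc1* and 0.017 for *Igfbp4*. With the cluster of totals as a covariate they were 0.46 for *H19*, 0.070 for *Meg3*, -1.05 for *Peg3*, -0.53 for *Plagl1*, -0.90 for *Zim1*, 0.50 for *Rian* and 0.13 for *Igfbp5*. In the libraries with higher totals they were 0.46 for *H19*, 0.064 for *Meg3*, -1.04 for *Peg3* and -0.53 for *Plagl1*, and the log2 *H19* to *Igf2* ratio differed by 0.60; the *Meg3* to *Dlk1* ratio kept its sign and differed by 1.27. Limma on the regularized values gave -0.10 for *Peg3*. With 1 mouse left out, ranges were -0.62 to 0.38 for *H19*, -0.15 to 0.044 for *Meg3*, -0.14 to 0.23 for *Peg3*, -0.11 to 0.12 for *Plagl1*, -0.0089 to 0.11 for *Gnas*, -0.34 to 0.057 for *Rian*, -0.96 to -0.06 for the *H19* to *Igf2* ratio and 0.51 to 0.83 for that of *Meg3* to *Dlk1*.

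Other imprinted genes called numbered 6 with DESeq2, which called 10.2% of all genes, 0 with either covariate and 0 to 4 with 1 mouse left out; IGF genes numbered 1 with DESeq2 (*Igfbp7*) and 0 to 1 with 1 mouse left out. No pair of members passed under any alternative. The relations to the muscle score and their alternatives were chosen after seeing the data: 2 members passed without centring or with DESeq2 size factors, and 0 to 2 with 1 mouse left out. Few counts limit *Zdbf2* and *Dlk1*.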
